A study of Homo sapiens with 56 samples.

Results

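The response of JEKO-1 cells to bortezomib was measured by RNA sequencing in 8 of the 56 libraries of the series. JEKO-1 is an established human mantle cell lymphoma cell line, a mature B-cell tumour line driven by cyclin D1. The 5 libraries with the drug carried the treatment label BTZ (3 libraries) or BTZ_CLF (2 libraries), and the 3 libraries without it carried CON (1 library) or CLF (2 libraries), where the labels do not spell out CLF. All 8 were chosen by cell line and treatment label alone, while leaving out 1 of them, BTZ 3, in a second comparison rests on its measured values. The labels used here give no dose, no exposure time and no mention of separate cultures, so p-values measure the spread between these libraries, which may be technical, and libraries named as pairs (BTZ 1 with BTZ 2, BTZ_CLF 1 with BTZ_CLF 2) may not be independent. MINO-P and MINO-VR, a pair of cultures of another mantle cell lymphoma line, had the same 4 treatments in 8 libraries and served for comparison. The labels do not spell out P or VR. Whether the pair differ in sensitivity to the drug is not given, and their changes are averaged below.

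Bortezomib is a reversible inhibitor of the proteasome that binds the catalytic subunit PSMB5. Blocking the proteasome leaves misfolded and ubiquitin-tagged proteins undegraded, and cells commonly answer with heat shock factor 1 targets (chaperones), with new proteasome subunits through the factor NFE2L1, with NRF2 targets against oxidative stress, and, in lymphoma and myeloma cells, with BH3-only death genes such as PMAIP1 (NOXA). Levels below are in CPM, a gene's reads per M reads (M is the SI prefix mega) outside the mitochondrial genome. Differences are of log2(CPM + 1), a scale on which the changes of low genes come out too small, and a gene is said to have risen or fallen only where the limma test gave a Benjamini-Hochberg adjusted p under 0.05 over all genes tested.

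The libraries differed in more than treatment. Mitochondrial reads made up 1.91%, 2.14% and 4.38% of CON 1, CLF 1 and CLF 2, but 67.6% and 67.5% of BTZ 1 and BTZ 2 and 80.5% and 65.5% of the BTZ_CLF libraries, with 9.92% in BTZ 3. The share was higher in all 5 libraries with the drug (58.2% ± 27.6 SD, n = 5, against 2.81% ± 1.36 SD, n = 3). An exact two-sided permutation test gave p = 0.0357, and p = 0.0571 without BTZ 3, each the smallest that its number of libraries allows. The mitochondrial reads were left out because this share was known to be high, so these p-values are a description and no independent support. In MINO the share was 2.17% to 3.37% in libraries labelled CON or CLF and 3.23% to 5.91% in those labelled BTZ or BTZ_CLF. It was also raised in JEKO-1 libraries without bortezomib that carried the label IBR or IBR_CLF, from 13.5% to 60.7%. The JEKO-1 libraries labelled S63845 and YM155 had 17.5% and 6.71%. Higher shares than under CON or CLF were also seen in MINO without bortezomib. They were 5.96% to 17.5% with IBR or IBR_CLF, 5.15% to 9.03% with YM155 or S63845, 25.5% with IBR_YM155 and 29.04% with IBR_S63845. Reads left for nuclear genes ranged from 1.37 to 2.33 M in the 4 libraries rich in mitochondrial RNA, 13.5 M in BTZ 3 and 16.6 to 18.4 M in the 3 without the drug, so that a count of 3 reads corresponded to between 0.163 and 2.18 CPM. The part of this difference in the gene results below was not tested.

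**Figure D1:**
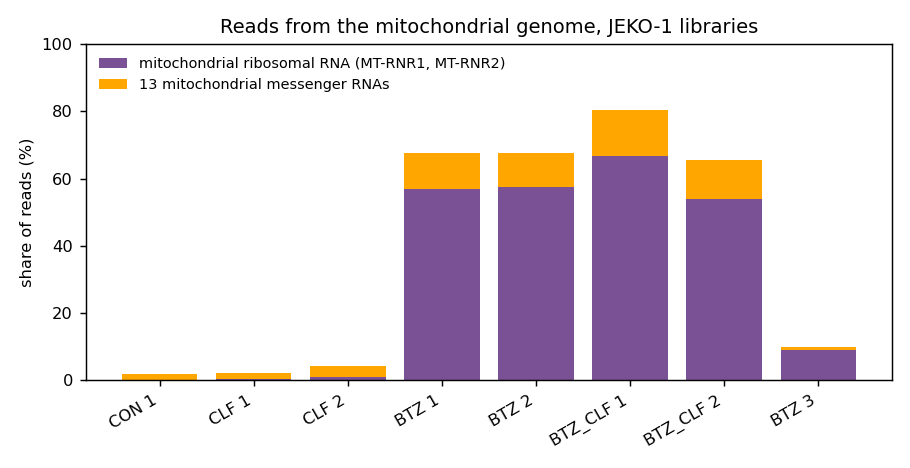
Share of all reads (y axis, percent) from the 2 mitochondrial ribosomal RNA genes and the 13 mitochondrial messenger RNAs in each of the 8 JEKO-1 libraries (x axis). Ribosomal RNA makes up 54.0% to 66.7% of the 4 tall bars, against 0.202% to 0.957% in the 3 libraries without the drug.

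BTZ 3 stood apart from the other libraries with the drug. Across 11086 genes, its levels correlated with those of BTZ 1 and BTZ 2 at Pearson's r = 0.519 and 0.522, while BTZ 1 and BTZ 2 correlated at 0.936 with each other and at 0.898 to 0.926 with the BTZ_CLF libraries. BTZ 3 was closer to the 3 libraries without the drug (r = 0.572 to 0.585) than to BTZ 1 and BTZ 2. Over the genes expressed across all 56 libraries, the one closest to BTZ 3 was JEKO-1 with S63845, an MCL-1 inhibitor (r = 0.70), where the 3 controls reached 0.619 to 0.628 and the BTZ_CLF libraries 0.581 and 0.588. Its difference from the controls also followed base composition: the median difference was 1.09 log2 in the quartile of genes with the lowest GC content and -2.67 in the highest, a gap of 3.76, where the other 4 libraries with the drug had gaps of 0.177 to 0.291. Gene lists and main genes are therefore given for all 5 libraries with the drug against the 3 without it, called the 5-library comparison, and again without BTZ 3, called the 4-library comparison.

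**Figure D2:**
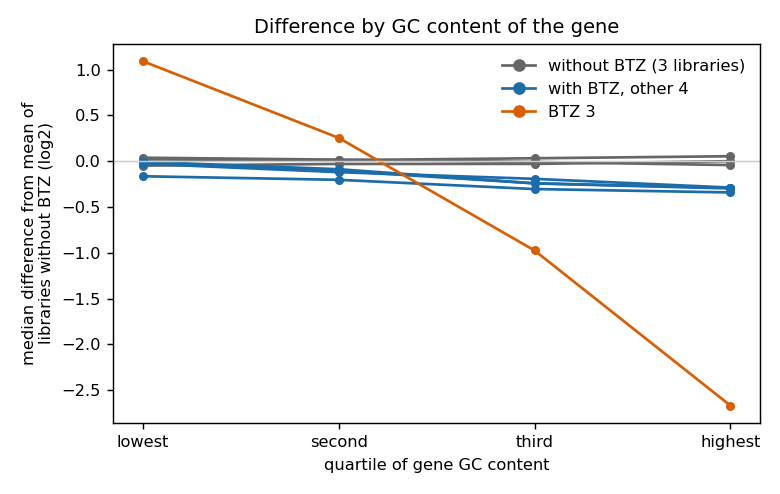
Median log2 difference from the mean of the 3 libraries without the drug (y axis) in each quartile of gene GC content (x axis), 1 line per JEKO-1 library. Each library without the drug is set against the mean of the others without it. BTZ 3 falls from 1.09 to -2.67 across the quartiles, and the other 7 lines stay between 0.0546 and -0.341.

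In the 5-library comparison, 410 of 13504 genes passed the test (3.04%), of which 166 were higher with the drug (1.23%) and 244 lower (1.81%). In the 4-library comparison, 4387 of 13353 genes passed (32.9%), 1651 higher (12.4%) and 2736 lower (20.5%), and they included all 410 with the same sign. Genes whose 5 values with the drug all lay above the 3 without it made up 6.67% of those tested, and genes with all 5 below 16.1%, and for the 4 libraries without BTZ 3 the shares were 15.8% and 25.6%. Counts of list members given below are to be read against these shares of all genes. The small call list of the 5-library comparison shrank when any library other than BTZ 3 was left out: leaving out CON 1, CLF 1, BTZ 1 or BTZ 2 left 1 gene (SNORD3A), leaving out CLF 2 left 6, and leaving out BTZ_CLF 1 or BTZ_CLF 2 left 144 or 108. Averaging the libraries named as pairs left 0 by limma (2320 at an unadjusted p under 0.05), and 4516 without BTZ 3. Genes called higher in it had a median GC content of 43.7% and genes called lower 53.9%, against 48.4% over all genes tested, and the corresponding values in the 4-library comparison were 47.7% and 50.9%. On the scale as deposited, with mitochondrial reads in the total, the median of all genes moved from -0.24 to -1.44 in the 5-library comparison and from -0.19 to -1.68 in the 4-library comparison, so directions are given relative to the reads outside the mitochondrial genome and counts on the deposited scale stand beside those that turn.

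Chaperone genes showed the largest rises among protein-coding genes. HSPA6 and HSPA1A, stress-inducible members of the HSP70 family that refold damaged proteins, went from under 20 CPM to 5114 CPM or more in 4 of the 5 libraries, and DNAJA4 and CHORDC1, co-chaperones of HSP70 and HSP90, rose in both comparisons. HSPA6 (chromosome 1, 161524540 to 161526895, hg38) stood at 4.85, 4.20 and 2.16 CPM in CON 1, CLF 1 and CLF 2, at 5385, 5424 and 87.2 CPM in BTZ 1, 2 and 3, and at 5114 and 5973 CPM in the BTZ_CLF libraries. No library with the drug overlapped those without it, and BTZ 3 sat between the groups. The difference was 9.03 ± 1.29 (log2, SE; adjusted p = 0.0156) with BTZ 3 and 10.22 ± 0.19 (adjusted p = 8.8e-11) without it. HSPA1A was measured at 19.8, 11.9 and 7.08 CPM without the drug and at 10189, 10013, 141, 8382 and 9846 CPM in BTZ 1, BTZ 2, BTZ 3, BTZ_CLF 1 and BTZ_CLF 2. It rose by 8.32 ± 1.33 log2 (adjusted p = 0.0216), and by 9.53 ± 0.25 (adjusted p = 1.8e-09) in the 4-library comparison. Its near-identical neighbour HSPA1B, whose reads the counting could split with HSPA1A, stood at 655, 617 and 357 CPM without the drug and at 8464, 9053, 172, 9243 and 9146 CPM with it in the same order. For HSPA1B the test was passed in the 4-library comparison (4.09 ± 0.21, adjusted p = 4.7e-07) and missed in the 5-library comparison (adjusted p = 0.228).

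Of the 11 tested genes of the HSP70 and HSP110 list, 2 rose and none fell in the 5-library comparison (list median 1.2, against -0.24 over all genes; on the deposited scale 2 higher and 3 lower). In the 4-library comparison 7 rose (median 1.67, against -0.19), where the deposited scale gave 5 higher and 4 lower. HSPH1, the HSP110 nucleotide exchange factor, rose by 2.75 ± 0.19 log2 in the latter (1.95 ± 0.90, adjusted p = 0.259, with BTZ 3). The constitutive HSPA8 rose by 0.38 ± 0.14 (adjusted p = 0.049), which turned to -1.36 on the deposited scale and to -0.21 with BTZ 3. Among 25 tested HSP40, BAG and small heat shock genes, 2 rose with BTZ 3 (1 higher and 6 lower on the deposited scale). Without it 15 rose and 4 fell (5 and 11 on the deposited scale). DNAJA4 went from 6.77, 5.81 and 3.97 CPM to 186, 186, 25.7, 199 and 207 CPM in the order used for HSPA1A, with no overlap (4.36 ± 0.67, adjusted p = 0.0192, and 4.93 ± 0.20 without BTZ 3). The HSP40 gene DNAJB1, at 178, 173 and 86.6 CPM without the drug, reached 2137, 2232, 1795 and 2031 CPM in the 4 concordant libraries but was listed at 53.9 CPM in BTZ 3, below all controls. BAG3, which links HSP70 to autophagy, followed the same course, with 31.7 to 54.0 CPM without the drug, 1121 to 1230 CPM in 4 libraries and 9.74 CPM in BTZ 3. In the 4-library comparison 6 of 17 genes of the HSP90, chaperonin and HSF list rose and 4 fell, against 12.4% and 20.5% of all genes (none and 13 on the deposited scale). In the 5-library comparison none of the 17 passed the test (10 lower on the deposited scale). HSP90AA1, the inducible HSP90, rose by 1.72 ± 0.18 in the former (1.07 ± 0.79 with BTZ 3). The mitochondrial paralogue TRAP1 fell by 1.97 ± 0.29 (-2.40 ± 0.58, adjusted p = 0.0598, with BTZ 3).

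**Figure D3:**
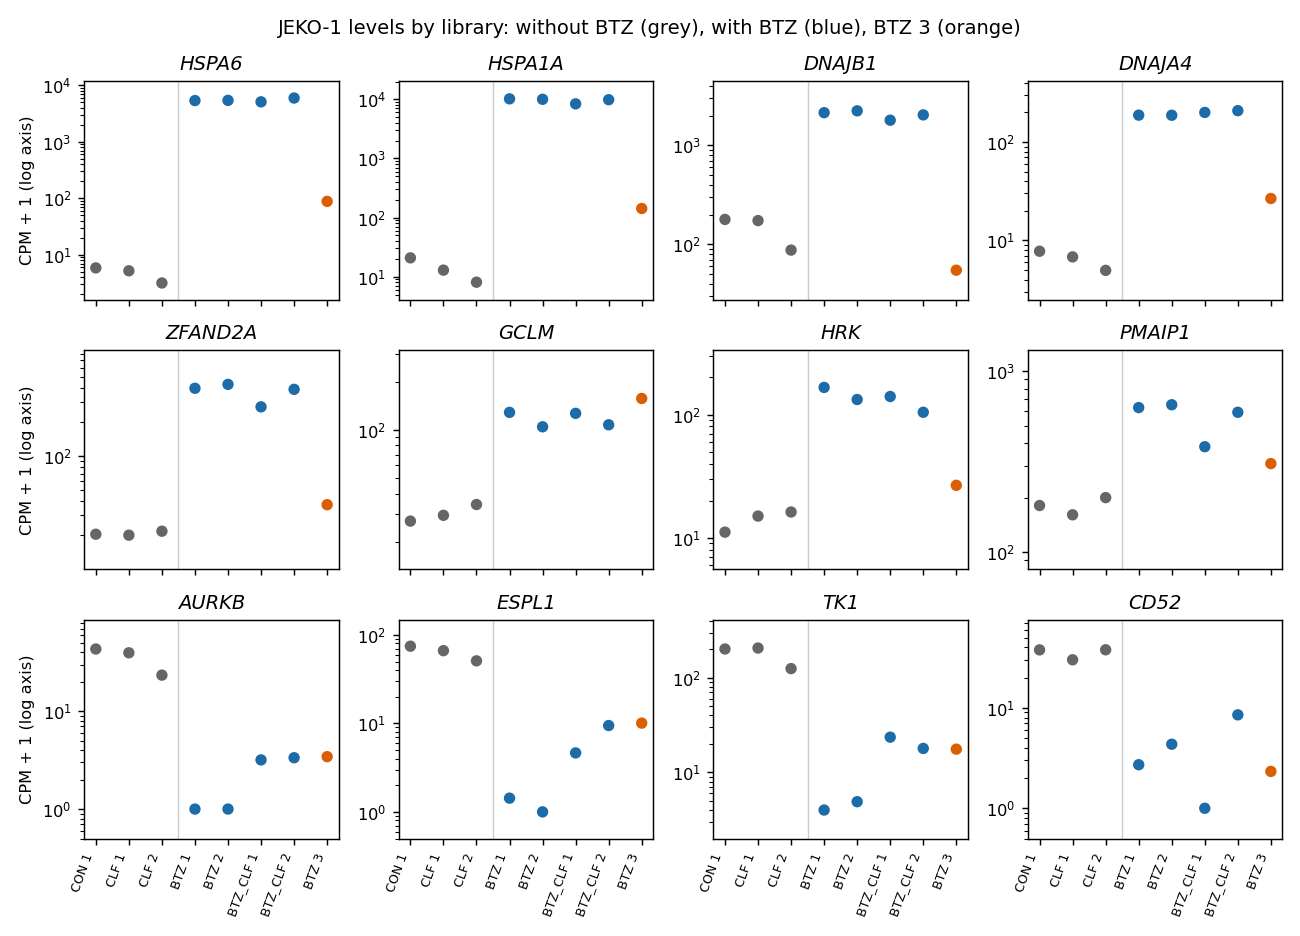
Level of 12 genes (y axis, CPM + 1, log axis) in each JEKO-1 library (x axis), without the drug in grey, with it in blue and BTZ 3 in orange. HSPA6, HSPA1A, DNAJA4, ZFAND2A, GCLM, HRK and PMAIP1 lie above the controls and AURKB, ESPL1, TK1 and CD52 below them in all 5 libraries with the drug, while DNAJB1 in BTZ 3 lies below the controls.

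The promoters of the heat shock genes were read for the binding pattern of heat shock factors, the heat shock element core. It is built of alternating GAA and TTC blocks, and 3 such blocks in a row were searched on both strands of RefSeq promoters (GRCh38.p14) spanning 250 bases before to 50 after the start site. Of 56 genes of the 3 heat shock lists, 48 had a promoter in the table and 5 of these held the pattern (HSPA6, CHORDC1, HSPA8, DNAJA1 and DNAJB6), where 0.49% of all 35116 promoters did. Shown here are the 150 bases before the start of the gene with the largest rise, of a co-chaperone that rose in both comparisons and of the constitutive HSPA8, with the matching bases in capitals. They lie at chr1:161524390-161524539 (plus strand), chr11:90223050-90223199 (minus strand) and chr11:123062137-123062286 (minus strand), and the first matching base is 74, 60 and 55 bases before the start. In CHORDC1 several overlapping matches run together.
HSPA6: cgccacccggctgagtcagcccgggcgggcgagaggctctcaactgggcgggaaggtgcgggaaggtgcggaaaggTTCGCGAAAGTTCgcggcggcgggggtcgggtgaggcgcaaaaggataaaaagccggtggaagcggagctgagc
CHORDC1: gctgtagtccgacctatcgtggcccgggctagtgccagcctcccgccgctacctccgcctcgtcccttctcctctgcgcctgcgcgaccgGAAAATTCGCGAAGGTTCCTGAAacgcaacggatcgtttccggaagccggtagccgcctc
HSPA8: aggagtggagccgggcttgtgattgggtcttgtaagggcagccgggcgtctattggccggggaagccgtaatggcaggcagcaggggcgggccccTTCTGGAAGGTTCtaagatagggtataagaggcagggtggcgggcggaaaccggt
A match is a description of these letters and not a measured binding site. CHORDC1 stood at 167, 162 and 85.3 CPM without the drug and at 608, 624, 271, 483 and 576 CPM with it in the order used above, with no overlap, and rose by 1.88 ± 0.37 log2 (adjusted p = 0.0347), and by 2.10 ± 0.22 without BTZ 3.

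Proteasome subunit genes moved by smaller amounts. In the 4-library comparison 8 of 14 genes of the catalytic core and 15 of 17 genes of the regulatory particle that feeds it rose and none fell, with list medians of 0.47 and 0.80 log2 against -0.19 over all genes, but on the deposited scale none rose and 14 and 13 fell. The share of all genes that rose in the 4-library comparison was 12.4%. PSMD14, the deubiquitinase of the regulatory particle, stood at 100.6, 104 and 115 CPM without the drug and at 300, 280, 258 and 270 CPM in the 4 concordant libraries, but at 50.5 CPM in BTZ 3. PSMB5, the subunit that bortezomib binds, stood at 182, 179 and 142 CPM without the drug and at 227, 256, 208 and 224 CPM in those 4 libraries (0.45 ± 0.14, adjusted p = 0.032), with 40.0 CPM in BTZ 3. That call was lost in 11 of 22 alternative settings, with an adjusted p of up to 0.154, and its sign turned on the deposited scale. In the 5-library comparison none of the 31 subunit genes passed the test, and the list medians were -0.02 and 0.04. On the deposited scale 11 of 14 and 6 of 17 fell, with medians of -1.43 and -1.37. The 5 immunoproteasome and PA28 genes, which make the form of the proteasome that cuts peptides for antigen presentation, went the other way: all 5 fell in the 4-library comparison and PSME1 and PSME2 also in the 5-library comparison. All 5 genes lay lower with the drug without overlap between the groups, against 16.1% of all genes. PSME2 fell from 111, 109 and 103 CPM to 26.1, 29.5, 16.4, 39.3 and 36.2 CPM in BTZ 1, BTZ 2, BTZ 3, BTZ_CLF 1 and BTZ_CLF 2 (-1.89 ± 0.33, adjusted p = 0.0272, and -1.70 ± 0.19 without BTZ 3).

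Among 22 ubiquitin and proteotoxic stress genes, 11 rose and 4 fell without BTZ 3 (2 and 15 on the deposited scale), and 1 rose and 1 fell with it (1 and 8 on the deposited scale). The shares of all genes were 12.4% and 20.5% without BTZ 3, and 1.23% and 1.81% with it. ZFAND2A, a heat-shock-induced ubiquitin-binding protein of the proteasome, went from 19.4, 19 and 20.7 CPM to 396, 428, 36.2, 271 and 387 CPM in the same order, with no overlap (3.49 ± 0.75, adjusted p = 0.0431, and 4.15 ± 0.18 without BTZ 3). NFE2L1 itself, with 381, 350, 384 and 343 CPM in the 4 concordant libraries against 247, 238 and 657 CPM, did not pass the test in either comparison. The assembly chaperone gene PSMG1 fell in both (-1.60 ± 0.34, adjusted p = 0.0419, with BTZ 3, and -1.60 ± 0.27 without it).

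NRF2 target genes included 1 of 15 tested that rose in the 5-library comparison and 10 in the 4-library comparison, with none falling in either (on the deposited scale none higher and 4 lower in the former, and 3 and 6 in the latter). The shares of all genes that rose were 1.23% in the 5-library comparison and 12.4% in the 4-library comparison. GCLM, the modifier subunit of the enzyme that starts glutathione synthesis, was the one gene of the list that rose in both. It stood at 25.9, 28.3 and 33.2 CPM without the drug and at 128, 104, 156, 126 and 107 CPM with it, BTZ 3 having the highest value (2.04 ± 0.26, adjusted p = 0.014, and 1.96 ± 0.17 without BTZ 3). Heme oxygenase, HMOX1, stood at 12.3, 9.38 and 79.0 CPM without the drug, at 335, 328, 248.9 and 338 CPM in the 4 concordant libraries and at 5.53 CPM in BTZ 3. CLF 2 was the highest of the controls for HMOX1, and also for the autophagy receptor SQSTM1 (849 CPM, against 197 and 209) and the stress kinase homologue TRIB3 (715 CPM, against 78.8 and 99.6), so the control side was itself not uniform for these genes. Of 18 autophagy and lysosome genes 9 rose in the 4-library comparison (1 higher and 10 lower on the deposited scale) and none in the 5-library comparison (1 and 4). After correction for GC content, 4 of these 18 and 4 of the 15 NRF2 target genes rose in the 5-library comparison. With that correction 431 of all 13504 genes rose. GABARAPL1, an ATG8-family protein of autophagosomes, went from 5.33, 5.96 and 19.9 CPM to 203, 216, 177 and 194 CPM in the 4 concordant libraries, with 10.04 CPM in BTZ 3.

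Stress genes of the endoplasmic reticulum were less uniform. HSPA5 (BiP), the main chaperone of that compartment, stood at 995, 1059 and 2508 CPM without the drug and at 1458, 1546, 1491 and 1513 CPM in the 4 concordant libraries, and passed the test in neither comparison. Of 16 genes of the unfolded protein response list, 2 rose and 5 fell without BTZ 3 (none and 15 on the deposited scale) and none passed the test with it (10 lower on the deposited scale). Of all genes, 12.4% rose and 20.5% fell without BTZ 3. In the list of ATF4 and integrated stress genes, 7 of 19 rose and 3 fell in the 4-library comparison (2 and 13 on the deposited scale), and 1 rose and 1 fell in the 5-library comparison (none and 10). Those that rose included ATF3 (4.03 ± 0.46), PPP1R15A, which encodes the GADD34 subunit that restarts translation (3.66 ± 0.43), and the death-linked factor DDIT3, or CHOP (2.09 ± 0.40). With BTZ 3 these 3 differences were 3.03 ± 1.19, 2.62 ± 1.21 and 1.26 ± 0.99 and none passed the test. ATF4 itself, CHAC1 and TRIB3 did not pass it in the 4-library comparison. In the 5-library comparison CEBPG, a partner of ATF4, rose from 56.6, 62.1 and 69.2 CPM to 117, 124, 135, 140 and 135 CPM (1.05 ± 0.23, adjusted p = 0.0461, and 1.03 ± 0.15 without BTZ 3). PHGDH, the first enzyme of serine synthesis, fell by 2.34 ± 0.47 (adjusted p = 0.0388, and by 1.99 ± 0.22 without BTZ 3).

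BH3-only genes, whose products trigger the mitochondrial death pathway, were among those that rose. PMAIP1 stood at 180, 160 and 199 CPM without the drug and at 628, 652, 308, 381 and 592 CPM with it, with no overlap (1.45 ± 0.32, adjusted p = 0.0464, and 1.62 ± 0.19 without BTZ 3). HRK went from 10.1, 14.02 and 15.2 CPM to 165, 131, 25.7, 139 and 103 CPM, also without overlap (2.80 ± 0.57, adjusted p = 0.0397, and 3.26 ± 0.22 without BTZ 3). BBC3 (PUMA) reached 88.3, 90.2, 49.5 and 71.4 CPM in the 4 concordant libraries against 11.8, 11.1 and 17.4 CPM without the drug (2.38 ± 0.27, adjusted p = 0.00011), but was listed at 0 in BTZ 3 (1.14 ± 1.37, adjusted p = 0.675, with it). BMF rose with it in the 4-library comparison (1.37 ± 0.21, against 1.08 ± 0.42 with BTZ 3, adjusted p = 0.195) and BID fell, so that 4 of 9 tested pro-apoptotic genes rose and 1 fell there (1 and 5 on the deposited scale). In the 5-library comparison 2 rose (1 higher and 4 lower on the deposited scale). Of the 10 anti-apoptotic and IAP genes none passed the test in the 5-library comparison (3 lower on the deposited scale). In the 4-library comparison BIRC6 rose and BIRC3 and BIRC5 fell (none higher and 9 lower on the deposited scale). These shares of the 10 genes lay near those of all genes, 12.4% higher and 20.5% lower. BIRC5 (survivin), which also serves in mitosis, stood at 255, 253 and 169 CPM without the drug, at 26.1, 14.5, 25.5 and 50.3 CPM in the 4 concordant libraries and at 661 CPM in BTZ 3, above every control. The MCL1 transcript, whose protein PMAIP1 binds, ranged from 379 to 504 CPM without the drug and from 430 to 611 CPM with it and did not pass the test (0.15 ± 0.25, and 0.07 ± 0.14 without BTZ 3). Of 18 p53 target genes in the 5-library comparison, TP53INP1 rose (1.84 ± 0.30, and 1.74 ± 0.22 without BTZ 3) and TP53I3 fell (none higher and 7 lower on the deposited scale). In the 4-library comparison 6 of 17 rose and 2 fell, against 12.4% and 20.5% of all genes (none and 11 on the deposited scale). CDKN1A and MDM2 passed the test in neither.

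The 12 largest falls in the 5-library comparison held 2 genes of the mitosis list and 1 of the DNA replication list. They were led by ESPL1 (separase, which splits sister chromatids), AURKB (the mitotic kinase Aurora B), TK1 (thymidine kinase) and PKMYT1 (an inhibitory kinase of CDK1), and included the replication factor CDC45, the recombination genes RAD54L and TONSL, and the mitotic kinesin KIF2C. Further members of the 12, not all of which are named here, were CD52, the mitochondrial carrier SLC25A10 and BOLA2, whose near-identical copy could share its reads. In bulk RNA, fewer cells of a kind and less RNA per cell cannot be told apart. AURKB stood at 42.3, 38.6 and 22.4 CPM without the drug and at 0, 0, 2.44, 2.18 and 2.35 CPM in BTZ 1, BTZ 2, BTZ 3, BTZ_CLF 1 and BTZ_CLF 2 (-4.06 ± 0.61, adjusted p = 0.0165, and -4.25 ± 0.56 without BTZ 3). Both zeros come from libraries with 2.33 and 1.80 M nuclear reads, in which 3 reads would be 1.29 and 1.67 CPM. TK1 fell from 201, 205 and 124 CPM to 3.0, 3.90, 16.6, 22.6 and 16.9 CPM in the same order (-4.01 ± 0.64, adjusted p = 0.0216, and -4.18 ± 0.57 without BTZ 3). ESPL1 went from 73.6, 65.4 and 49.9 CPM to 0.429, 0, 9.08, 3.64 and 8.46 CPM in that order.

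Of 30 mitosis genes, 9 fell in the 5-library comparison (list median -2.28) and all 30 in the 4-library comparison (median -2.89). The shares of all genes that fell were 1.81% and 20.5%. Of 31 DNA replication genes, 19 fell in the 5-library comparison (median -2.45) and 30 in the 4-library comparison (median -2.42), the exception being CCNE1 (-0.67). MCM2, a subunit of the replicative helicase, fell from 474, 509 and 421 CPM to 48.9, 38.7, 40.3, 140 and 121 CPM (-2.79 ± 0.47, adjusted p = 0.024, and -2.61 ± 0.38 without BTZ 3). BTZ 3 divided the mitosis list: it had 2.07 CPM of CDC20 and 4.87 CPM of PLK1, below the other 4 libraries with the drug, but 747 CPM of MKI67 against 141 to 461 CPM in the controls and 7.24 to 43.7 CPM in the other 4. TOP2A, the topoisomerase of dividing cells, stood at 311 CPM in BTZ 3, within the controls' 288 to 380 CPM.

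Promoters of the mitosis genes were read for TTTGAA, the core of the cell cycle homology region that late cell cycle genes share, and for CCAAT, the NF-Y box, on both strands (TTCAAA and ATTGG are the other strands). Promoters were in the table for 25 of the 30 genes. TTTGAA was found in 17 of the 25 and in 15.2% of all promoters, CCAAT in 21 of the 25 and in 34.6% of all, and both in 14 of the 25 and in 5.90% of all. The antioxidant core TGACNNNGC was found in 4 of the 25, in 9 of the 48 heat shock promoters, in 4 of the 10 NRF2 target promoters in the table (GCLM, ME1, PIR and TXNRD1) and in 13.3% of all. Heat shock promoters held TTTGAA in 3 and CCAAT in 18 of 48. Shown are the 150 bases before the start of 4 mitosis genes with both patterns, in capitals, at chr12:53268149-53268298, chr1:43358831-43358980, chr16:23678739-23678888 and chr15:59104996-59105145 (all plus strand).
ESPL1: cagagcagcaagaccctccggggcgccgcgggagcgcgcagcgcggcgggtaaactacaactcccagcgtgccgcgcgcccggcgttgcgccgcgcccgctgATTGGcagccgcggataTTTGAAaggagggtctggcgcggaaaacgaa
CDC20: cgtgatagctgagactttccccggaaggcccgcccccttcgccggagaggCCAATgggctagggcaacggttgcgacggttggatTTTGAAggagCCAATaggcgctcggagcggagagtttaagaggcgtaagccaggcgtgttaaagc
PLK1: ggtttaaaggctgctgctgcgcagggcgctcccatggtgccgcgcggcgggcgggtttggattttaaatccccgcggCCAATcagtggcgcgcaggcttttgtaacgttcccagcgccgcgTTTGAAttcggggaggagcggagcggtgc
CCNB2: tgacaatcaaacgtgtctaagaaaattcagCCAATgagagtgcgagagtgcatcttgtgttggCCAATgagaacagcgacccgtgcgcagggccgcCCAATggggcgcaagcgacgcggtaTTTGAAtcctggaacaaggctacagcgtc
In ESPL1, PLK1 and CCNB2 the TTTGAA begins 31, 29 and 29 bases before the start, and in CDC20 it begins 65 bases before it. CDC20, the activator of the anaphase-promoting complex, fell from 98.2, 88.1 and 79.7 CPM to 7.71, 8.35, 2.07, 16.01 and 23.0 CPM (-3.15 ± 0.62, adjusted p = 0.0353, and -2.73 ± 0.35 without BTZ 3). CCNB2 (cyclin B2) fell by 2.27 in the 4-library comparison and did not pass the test in the 5-library comparison (-1.98).

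Several genes of the B-cell program fell. CD79A, a signalling chain of the B-cell receptor, fell from 339, 343 and 325 CPM to 113, 82.4, 48.6, 101.2 and 116 CPM (-1.92 ± 0.32, adjusted p = 0.0231, and -1.70 ± 0.15 without BTZ 3). The kinase gene BTK fell by 1.45 ± 0.25 (1.44 ± 0.18 without BTZ 3). Of 19 receptor signalling genes 5 fell in the 5-library comparison and 13 in the 4-library comparison, against 1.81% and 20.5% of all genes, with none rising. Of 19 identity factors 1 and 8 fell, with none rising. After correction for GC content no identity factor fell in the 5-library comparison, and 3 rose and 8 fell in the 4-library comparison. The median of the identity factors in BTZ 3 was 0.74 log2 above the controls. The identity factor that fell in both was SPIB, an ETS factor of B cells (334, 297 and 165 CPM to 24.9, 25.1, 56.7, 23.8 and 47.8 CPM). CD52, the target of alemtuzumab, went from 36.8, 29.1 and 36.8 CPM to 1.71, 3.34, 1.33, 0 and 7.52 CPM (-3.56 ± 0.66, adjusted p = 0.0313, and -3.47 ± 0.62 without BTZ 3). All 10 genes of the MHC class II list lay below the controls in all 5 libraries with the drug, against 16.1% of all genes. Of the 10 genes, 6 fell with BTZ 3 and 10 without it, among them CD74, the invariant chain (2707, 2365 and 2764 CPM to 632, 668, 958, 884 and 791 CPM). CCND1, the cyclin that the disease's translocation activates, stood at 2137, 2239 and 1375 CPM without the drug and at 457, 481, 960, 817 and 706 CPM with it. Its groups did not overlap, and the test was passed in the 4-library comparison (-1.65 ± 0.24, adjusted p = 0.00046) and missed in the 5-library comparison (adjusted p = 0.0532).

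Markers of the lymphoma line were present in all libraries and those of other cell types were lower in sum. The mantle cell lymphoma list summed to 5588 to 6649 CPM without the drug and 2006 to 4850 CPM with it. The 7 T-cell markers summed to 9.62 to 18.7 CPM without and 3.0 to 30.6 CPM with the drug, mostly TRAC, with CD2 at 0 in all 8 libraries and CD3E at or near 0. The 6 of 8 myeloid markers in the table summed to 0.291 to 13.02 CPM without and 0 to 42.9 CPM with the drug, with CD14 at most 1.11 CPM. That sum was mostly CD68, a lysosomal protein gene, which stood at 0.147, 0.493 and 12.4 CPM without the drug and at 25.04, 25.1, 0, 28.3 and 39.1 CPM with it. The 8 stromal and epithelial markers summed to 36.4 to 51.4 CPM and 27.1 to 106 CPM, with DCN at 0 throughout. Only 2 of them stayed under 5 CPM in all 8 libraries. The highest values of the others were 44.3 CPM for PECAM1, 30 for COL1A1, 12.9 for KRT8, 12.4 for VWF, 12 for EPCAM and 8.35 for KRT18. The 6 of 7 erythroid and NK markers in the table summed to 1.62 to 3.11 CPM and 1.55 to 55.7 CPM, the highest sums being hemoglobin transcripts in BTZ_CLF 1 and BTZ 1 (HBB 25.5 and 22.3 CPM).

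Among early response genes 10 of 19 rose in the 4-library comparison (6 higher and 9 lower on the deposited scale) and none passed the test in the 5-library comparison (9 lower on the deposited scale). The shares of all genes in the 4-library comparison were 12.4% higher and 20.5% lower. After correction for GC content, 5 of the 19 rose in the 5-library comparison, as did 431 of all 13504 genes. JUN, a subunit of the AP-1 factor, stood at 12.51, 8.68 and 5.05 CPM without the drug and at 329, 314, 237 and 327 CPM in the 4 concordant libraries (5.02 ± 0.26, adjusted p = 4.7e-07), with 0.0738 CPM in BTZ 3 (3.40 ± 1.76, adjusted p = 0.312, with it). EGR1 did not pass it (-0.53 ± 0.52). MYC, at 619, 661 and 750 CPM without the drug, ranged from 638 to 1030 CPM in those 4 libraries and did not pass it either. Of 20 genes of the MYC and ribosome biogenesis list 15 fell in the 4-library comparison and none in the 5-library comparison. Of 31 nuclear genes of oxidative phosphorylation 19 fell without BTZ 3, and COX5A and ATP5PO fell also with it. Cytosolic ribosomal protein genes had a median of 0.10 in the 4-library comparison, with 1 of 37 rising and 2 falling, against 12.4% and 20.5% of all genes (none and 37 on the deposited scale). None passed the test in the 5-library comparison (31 lower on the deposited scale).

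**Figure D4:**
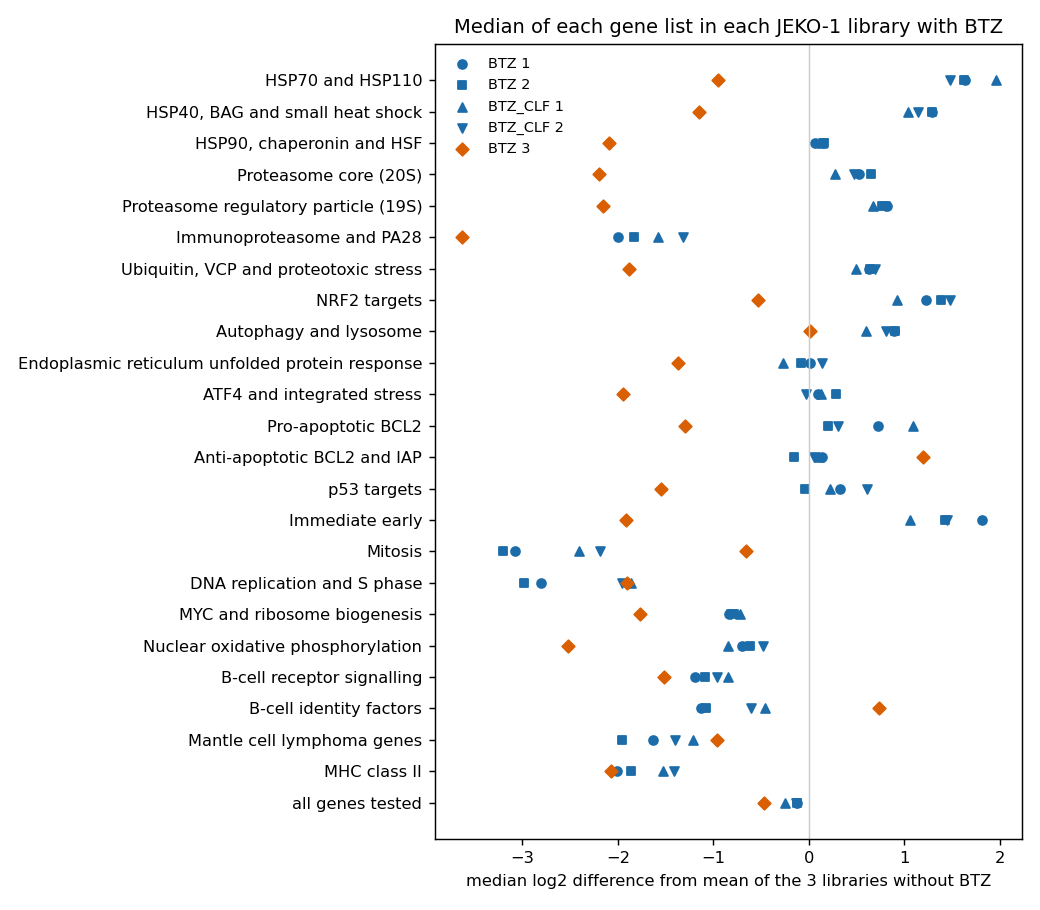
Median log2 difference from the mean of the 3 libraries without the drug (x axis) of 23 gene lists and of all genes tested (y axis), 1 symbol per JEKO-1 library with the drug. The blue symbols of the other 4 libraries lie close together, and the orange symbol of BTZ 3 lies apart in most lists, as in the mitosis list (-0.66 against -2.19 to -3.21).

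Of the 12 largest rises, 10 were entries for short structured RNAs, a grouping made after the values were seen, and several entries stand for copies of 1 RNA. The list of abundant small and nuclear RNAs held 5 of the 12. RNAs of the signal recognition particle (RN7SL1, RN7SL2) and of the 7SK particle that holds back transcription elongation, and SNORD3A (U3, a guide of ribosomal RNA processing), were low in the control libraries. RN7SL2 stood at 91.6, 98.8 and 96.0 CPM without the drug and at 26936, 26636, 715, 24296 and 21280 CPM with it (6.98 ± 1.12, adjusted p = 0.0216, and 8.0 ± 0.14 without BTZ 3). SNORD3A went from 0.844, 0.821 and 7.39 CPM to 1065, 996, 868, 2698 and 848 CPM, so that for this gene BTZ 3 was like the other libraries with the drug (8.58 ± 0.58, adjusted p = 0.00105, and 8.68 ± 0.53 without BTZ 3). All 8 tested genes of the list of abundant small and nuclear RNAs rose in both comparisons, MALAT1 and NEAT1 included (3.96 and 3.49 with BTZ 3, 4.27 and 3.93 without it). Reads of RN7SL and 5.8S ribosomal RNA copies, and of the overlapping entries 7SK and RN7SK, cannot be assigned to 1 copy with certainty, and the entries 5_8S_rRNA and RNA5-8SN3 held identical values. JEKO-1 libraries without bortezomib but with the label IBR or IBR_CLF held 980 to 27630 CPM of RN7SL2, the S63845 library 12043 CPM and the YM155 library 113 CPM. MINO libraries labelled CON or CLF held 401 to 567 CPM (0.0401% to 0.0567%) and those labelled BTZ or BTZ_CLF 123 to 184 CPM. In MINO libraries without bortezomib but with IBR, YM155 or S63845, RN7SL2 made up 0.00115% to 0.310% of reads outside the mitochondrial genome. The mitochondrial share was also higher in all 5 libraries with the drug. For SNORD3A, BTZ 3 (share 9.92%) and BTZ_CLF 2 (65.5%) stood at 868 and 848 CPM. The part of the mitochondrial share in the result was not tested.

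The change in JEKO-1 was set against that in MINO, the mean of the changes in MINO-P and MINO-VR, by the difference of the effects. The libraries of the pair of cell lines also carry different name series (MCL and HK), so line and series cannot be told apart. In all, 307 of 14494 genes differed (2.12%), 226 of them with the higher change in JEKO-1 (1.56%) and 81 with the lower (0.559%). Without BTZ 3, 2637 of 14403 differed (18.3%), 1352 higher (9.39%) and 1285 lower (8.92%). The largest differences upward were RN7SL1, RN7SK, RN7SL2, RN7SL4P and 7SK (9.15, 8.70, 8.65, 8.23 and 7.27 log2). Downward they were MAP1A, CXCL8, L1CAM, ENO2 and TUBB4A, genes that include the neuronal proteins MAP1A, L1CAM and TUBB4A, the neuronal enolase ENO2 and the chemokine interleukin-8. MAP1A stood at 7.03 to 50.6 CPM in MINO without the drug and at 713 to 1437 CPM with it, whereas JEKO-1 had 96.9 to 395 CPM and 45.8 to 496 CPM (difference -4.98, adjusted p = 0.016).

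Chaperone and proteasome genes were also higher with the drug in MINO, whose own change was not tested here. In MINO, HSPA6 stood at 0.0738 to 19.4 CPM without the drug and 75.6 to 870 CPM with it (a difference of 7.34 log2), and the difference from JEKO-1 did not pass the test with BTZ 3 (1.69, 95% interval -2.18 to 5.57) or without it (2.88, 0.78 to 4.99, adjusted p = 0.056). The change of HSPA8 was 2.89 log2 in MINO, and that in JEKO-1 minus it was -2.51 without BTZ 3 (-3.04 to -1.97, adjusted p = 2.8e-05). For HSP90AA1 the change was 3.93 log2 in MINO and the difference -2.21 (adjusted p = 8.5e-05). With BTZ 3 neither difference passed the test (adjusted p = 0.066 and 0.12). DNAJA4 differed in the other direction with and without BTZ 3 (3.94, adjusted p = 0.024, and 4.52): it stood at 0.356 to 2.0 CPM in every MINO library. Proteasome medians were 1.0 and 1.5 in MINO for the core and the regulatory particle, and without BTZ 3 the change was lower in JEKO-1 for 7 of 14 and 12 of 17 genes, as for PSMD1 (-1.60, adjusted p = 0.00013). With BTZ 3 none of these 31 differences passed.

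Of 9 pro-apoptotic genes, the change in JEKO-1 was higher than in MINO for 4 without BTZ 3 (against 9.39% of all genes) and for 1 with it (against 1.56%), and lower for none. Without BTZ 3, the difference was 3.28 for BBC3 (2.60 to 3.96, adjusted p = 2.2e-05), which stood at 22.8 to 50.8 CPM without and 10.8 to 27.1 CPM with the drug in MINO. It was 2.59 for HRK (adjusted p = 0.00032), 2.65 for BMF and 1.32 for PMAIP1 (0.82 to 1.81, adjusted p = 0.0017). With BTZ 3, of these 4 only BMF passed the test (2.35, adjusted p = 0.026). PMAIP1 stood at 353 to 451 CPM in MINO without the drug, above the JEKO-1 controls, and at 366 to 707 CPM with it. For the mitosis list, 1 of 30 genes differed between the lines without BTZ 3 (INCENP) and none with it, and the median change in MINO was -2.07. The difference for AURKB was -1.30 (interval -2.88 to 0.27) and for PLK1 0.06 (-1.69 to 1.81) without BTZ 3, wide intervals that do not show equal changes. The MHC class II list had a median of -1.82 in MINO.

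**Figure D5:**
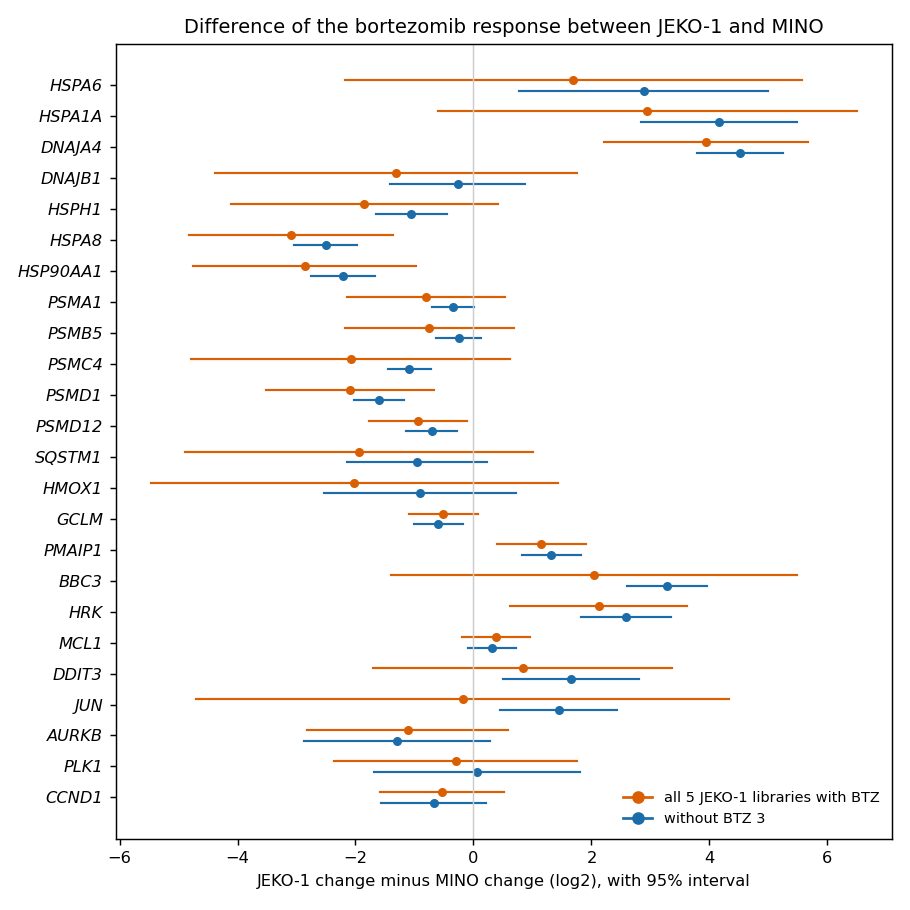
Change in JEKO-1 minus change in MINO (x axis, log2, with 95% intervals) for 24 genes (y axis), with all 5 JEKO-1 libraries with the drug in orange and without BTZ 3 in blue. The blue interval of BBC3 spans 2.60 to 3.96 and that of HSPA8 -3.04 to -1.97, and every orange interval shown for a heat shock gene except those of DNAJA4, HSPA8 and HSP90AA1 includes 0.

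The genes in which BTZ 3 differed most from BTZ 1 and BTZ 2 are given as a description, with no test. CERKL stood at 151 CPM in BTZ 3 and near 0 in BTZ 1 and BTZ 2, with 0.971, 1.34 and 1.09 CPM in the controls. FAM111B (111 CPM, against 0 and 0), PRR11 (624 CPM, against 6.43 and 5.57), MKI67 (747 CPM, against 9.43 and 7.24) and FAM81A (90.5 CPM, against 0 and 0.557) were higher than in any other of the 8 libraries as well. In the other direction JUN, LMNA, ABHD4, CSF1 and CLTB were at 0 to 1.92 CPM in BTZ 3 and at 179 to 591 CPM in BTZ 1 and BTZ 2. LMNA, the gene of nuclear lamin A, was listed at 0 in BTZ 3 and stood at 58.0 to 150 CPM in the controls. SOX11, the neural factor that marks mantle cell lymphoma, was at 447 CPM in BTZ 3, 81.3 to 113 CPM in the controls and 49.3 to 71.9 CPM in the other 4.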

How the data were processed

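RNA from cultured cells was sequenced as paired reads. The submitters' processing notes name Partek and the build hg38, and the aligner and counting rule are not given in the sources used here. The authors deposited log2(CPM + 1) values in 1 table of 21596 rows and 56 libraries. Steps in the low values gave whole reads for 76.3% to 89.1% of values within a tolerance of 0.02, too few for a count model, so depths of 5.53 to 18.8 M reads in the 8 libraries are estimates from those steps, and limits drawn from them cover counting error only. Unnamed rows held at most 0.00077% of reads. The log2 was undone, the 15 mitochondrial rows were left out and each library was rescaled to 1 M reads. Genes reaching 1 CPM in any 3 libraries of a fit were tested with limma 3.58.1 (R 4.3.3, intensity trend, pseudocount 1, Benjamini-Hochberg adjustment), with no covariates. The contrast with MINO took the mean of the effects in MINO-P and MINO-VR. The fitting script was tested on simulated data. GC content came from GENCODE v29 transcripts and promoters from RefSeq (GRCh38.p14).

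The genes named are up to 12 rises and 12 falls by size among genes called, with a mean of 5 CPM or more and no overlap, a list of key genes, up to 4 called members of each gene list, and up to 5 each way for the contrast with MINO and for BTZ 3 against BTZ 1 and BTZ 2. Any other gene named was chosen after its values were seen. The members, gene lists and tests were chosen with earlier results of these data known. Alternatives covered scaling, low-value filter, pseudocount, array weights, pairs of library names, CLF as a term, GC content and each library left out.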

Additional observations from a re-analysis of the deposited data

Results flagged for a closer look

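Among the 5 JEKO-1 libraries with bortezomib, BTZ 3 lay far from the other 4 in 3 of 4 library-wide measures. Its mitochondrial share was 9.92%, its reads outside the mitochondrial genome 13.5 M, and its gap between the genes of lowest and highest GC content 3.76 log2. The gap to the nearest library made up 0.788, 0.921 and 0.968 of the range, above the Dixon limit of 0.71, and the number of genes detected gave 0.633, below it. Of 111 named genes, leaving out those named for their difference in BTZ 3, 50 passed the same limit, 47 of them through BTZ 3 (41 with the lowest value and 6 with the highest). Chance flags about 1 in 20 groups when no library is picked beforehand. Here BTZ 3 was already known as divergent, so passing the limit describes it and is no test of it. These measures also share their libraries.

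The change with bortezomib differed between JEKO-1 and MINO for 16 of the genes named by rule, by the test of the difference itself with all 5 libraries. Over all genes tested, 2.12% differed. Up to 5 genes each way had been named because they passed this same test, so their passing adds no support. These were MAP1A, CXCL8, L1CAM, ENO2 and TUBB4A, and RN7SL1, RN7SK, RN7SL2, RN7SL4P and 7SK. The change was lower in JEKO-1 for MAP1A (-4.98), CXCL8 (-4.24), L1CAM (-3.68), ENO2 (-3.28) and TUBB4A (-3.22). It was higher for CEBPG (1.41), TP53INP1 (1.64), H4C3, a replication-dependent histone gene (3.92), DNAJA4 (3.94), SNORD3A (4.95), RN7SL5P (6.78), 7SK (7.27), RN7SL4P (8.23), RN7SL2 (8.65), RN7SK (8.70) and RN7SL1 (9.15). For CEBPG every JEKO-1 library with the drug lay above the JEKO-1 controls, while MINO stood at 107 to 175 CPM without and 92.0 to 123 CPM with it.

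Mitochondrial ribosomal RNA, which was left out before testing, was higher with the drug, whereas none of the 13 mitochondrial messenger RNAs lay above the controls in all 5 libraries. The messenger RNAs made up 0.90% of reads in BTZ 3, the lowest of the 8 libraries, 10.1% to 13.8% in the other 4 with the drug and 1.70% to 3.42% without it. MT-RNR1 reached at least 17786 CPM of all reads in every library with it, against at most 1787 CPM without it. For MT-RNR2 the lowest value with the drug was 72429 CPM and the highest without it 7780 CPM.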

How the results depend on the processing

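The 5-library count of 410 genes depended on most choices. It was 6117 on the deposited scale (115 higher, 1.88%), 268 with protein-coding genes only, 781 with no low-value filter, 6843 with array weights, 76 with CLF as a term and 715 after correction for GC content (431 higher, 60.3%, against 40.5%). Size factors gave 347 genes, 58.5% of them higher. Averaging paired library names left 0 genes by limma (2320 at an unadjusted p under 0.05), as did leaving out the libraries whose names end in a (2274) and comparing BTZ with CON only (205). BTZ_CLF against CLF gave 836, BTZ_CLF against CON or CLF 2846 and BTZ without BTZ 3 against CON or CLF 4285. Leaving out 1 library gave between 1 and 4387, the latter without BTZ 3. Without BTZ 3 and CLF 2 together 4299 genes passed, and without BTZ 3 with pairs averaged 4516. The 4-library count of 4387 was 10926 on the deposited scale (2.49% higher, against 37.6%) and 6852 with array weights, and leaving out 1 library gave 2737 to 4605. Size factors gave 4151 (48.4% higher) and GC correction 4115 (51.6%). The count of 307 genes that differed from MINO was 5047 on the deposited scale (6.68% higher, against 73.6%), 641 with no filter (56.2%), 4615 with array weights (49.2%), 468 without libraries ending in a (59.6%), 3680 without BTZ 3 with pairs averaged, and 67 to 2637 with 1 library left out. The cause was not tested, apart from the scale and the libraries that each alternative names.

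Single genes that passed the test in at least 1 of both fits compared changed sign as follows. On the deposited scale the 5-library differences were -0.3496 for CEBPG, -1.38 for PSMA1 and -1.365 for PSMD1. On that scale the 4-library differences were -1.47 for ATF4, -1.616 for BCL2, -0.6859 for CEBPG, -0.748 for DNAJB9, -0.02637 for HSP90AA1, -1.622 for HSPA5, -1.358 for HSPA8, -0.4747 for HSPD1, -1.664 for MCL1, -1.378 for MYC, -1.627 for NFE2L1, -0.1173 for PMAIP1, -1.242 for PSMA1, -1.279 for PSMB5, -0.7787 for PSMC4, -1.203 for PSMD1, -0.5567 for PSMD12, -0.3607 for TXNRD1 and -1.631 for XBP1. With array weights the 5-library differences were 0.4059 for ATF4, 0.5055 for HSPA5, 0.4931 for MYC and 1.004 for PSMC4. Without BTZ 3 they were 0.3843 for HSPA8, 0.4484 for PSMB5, 0.9472 for PSMC4 (also with pairs averaged) and -0.5497 for SOX11, whereas leaving out other single libraries gave values down to -0.3637 for HSPA8, -0.2139 for PSMB5 and -0.3279 for PSMC4 and up to 0.2388 for SOX11. PSMC4 was 0.9512 for BTZ_CLF against CON or CLF. With BTZ_CLF and BTZ 3 left out, MYC was 0.5936, PSMB5 0.5279 and PSMC4 0.9432. Without BTZ 3 and CLF 2, ATF4 was 0.4367, HSPA5 0.5479, HSPA8 0.3307, NFE2L1 0.5854 and PSMC4 1.063. The next counts take 117 single-gene results, those of the 5-library comparison and of the contrast with MINO together. Of their alternative values, 2244 kept direction and call, 659 lost the call, 201 gained it and 21 changed sign with a call in either fit. Another 128, in 32 of these results such as BCL2, MCL1 and CHAC1, changed sign with none. Over 107 genes without BTZ 3 the counts were 2178, 67, 31, 19 and 35 (10 genes). No paired analysis was possible because the labels give no replicate numbers shared between the groups. Low nuclear depth with the drug limits what can be said of genes under about 2 CPM.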

Other observations

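A pair of protein-coding genes outside the lists above had large rises in the 4-library comparison and were chosen after their values were seen. SERPINH1, the collagen chaperone HSP47, stood at 125, 125 and 310 CPM without the drug and at 4007, 4442, 3820.0 and 4309.7 CPM in BTZ 1, BTZ 2, BTZ_CLF 1 and BTZ_CLF 2, with 45.5 CPM in BTZ 3 (4.60 ± 0.27 without BTZ 3, and 3.31 ± 1.42, adjusted p = 0.233 by limma, with it). GADD45G, a stress sensor gene, went from 2.60, 1.88 and 3.85 CPM to 150, 143, 64.1 and 170 CPM, with 3.10 CPM in BTZ 3 (5.08 ± 0.35 without BTZ 3, and 4.09 ± 1.13, adjusted p = 0.0879 by limma, with it). In both genes BTZ 3 lay within or below the range of the controls.

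Z138, another mantle cell lymphoma line, had 1 library with BTZ and 4 labelled CON or CLF, so no test was made. Its libraries with other drugs are left out here. HSPA6 stood at 1115 CPM in the BTZ library and at 0.910 to 72.1 CPM in those 4, GCLM at 156 CPM and 27.0 to 39.7 CPM, and AURKB at 1.43 CPM and 65.0 to 94.4 CPM. In JEKO-1 without bortezomib, HSPA6 stood at 647 and 723 CPM in the IBR_CLF libraries and at 13.99 to 16.95 CPM in the IBR libraries.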
